A study of Mus musculus with 6 samples.

Results

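Polycomb repressive complex 2 (PRC2) genes were followed in mouse embryonic stem (ES) cells with and without Zscan5b, a gene for a SCAN-type zinc finger protein. A gene was included when its name in the scanner tables was Ezh1, Ezh2, Eed, Suz12, Rbbp4, Rbbp7, Mtf2, Phf19, Jarid2 or Aebp2, which gave 10 of 19006 genes with a tested probe, read by 17 of 39429 gene probes. All 17 probes passed the filter on dim signal, which asked for a signal well above background on 3 or more of the 6 arrays. The Zscan5b knockout group and the wild type group held 3 arrays each, with Cy3-labelled RNA of 1 labelled replicate on each. All 6 samples were undifferentiated ES cells maintained with leukemia inhibitory factor on mouse embryonic fibroblasts stopped by mitomycin C, so fibroblast RNA can be present in every sample. The labels do not state the ES line, how the knockout was made, where the deletion lies, or whether the knockout replicates came from 1 clone or from separate cultures. The p-values therefore measure the spread between these samples only, which may be technical.

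PRC2 is the enzyme that methylates H3K27, a lysine of histone H3, and this mark lies on silenced chromatin. EZH1 or EZH2 carries the catalytic SET domain, EED reads the methyl mark and stimulates the enzyme, and SUZ12 holds the complex together with the histone-binding proteins RBBP4 and RBBP7. MTF2 and PHF19 belong to the variant called PRC2.1 and JARID2 and AEBP2 to PRC2.2, and these accessory proteins help to bring the enzyme to CpG islands. In ES cells PRC2 keeps many developmental genes silent, and ES cells that lack Eed or Suz12 can still self-renew but differentiate poorly. EZH2 is the form typical of dividing cells, whereas EZH1 is also found in resting ones.

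The sequences shown here belong to the pair of catalytic paralogues, on which the description below turns. They are an Ezh1 array probe that reads coding sequence of the SET domain (mm9 chromosome 11, 101054534 to 101054593, minus strand) and the 250 bases before the transcription start of each gene. The promoter windows come from RefSeq on GRCm38.p6, chr11:101226464-101226713 for Ezh1 and chr6:47595031-47595280 for Ezh2, both on the minus strand. In the promoters, capitals mark the CCAAT box (CCAAT on either strand), and the probe is unmarked.
Ezh1 probe A_55_P2017086: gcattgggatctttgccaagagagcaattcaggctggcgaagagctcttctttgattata
Ezh1 promoter: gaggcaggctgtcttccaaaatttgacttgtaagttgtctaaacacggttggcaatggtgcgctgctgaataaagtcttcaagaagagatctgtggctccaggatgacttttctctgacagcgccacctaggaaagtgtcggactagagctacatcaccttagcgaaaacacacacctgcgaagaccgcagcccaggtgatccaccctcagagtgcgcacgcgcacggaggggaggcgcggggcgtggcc
Ezh2 promoter: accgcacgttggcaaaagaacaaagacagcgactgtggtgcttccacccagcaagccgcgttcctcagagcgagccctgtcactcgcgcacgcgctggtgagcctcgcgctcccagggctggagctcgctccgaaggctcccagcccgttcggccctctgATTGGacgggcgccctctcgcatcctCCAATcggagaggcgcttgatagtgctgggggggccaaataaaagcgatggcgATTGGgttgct
The Ezh2 window held 3 CCAAT matches and the Ezh1 window 0, where 33.9% of 32851 RefSeq promoter windows of the same length held at least 1. The windows held 14 CpG dinucleotides for Ezh1 and 23 for Ezh2, against a median of 6 over all windows. The E2F-type motifs TTTCCCGC, TTTCGCGC, TTTGCCGC and TTTGGCGC, searched on both strands and sharing no base with the CCAAT matches, were in neither window and were in 1.86% of all windows. Nothing was measured at these promoters in the series, and a match is a description of the letters only.

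Between 25371 and 27111 gene probes were well above background on the knockout arrays, and between 26511 and 27754 on the wild type arrays. Each genotype had its own slide and its own scan, so slide and genotype cannot be told apart in any comparison here. Pairs of knockout arrays differed by an SD of 0.33 to 0.40 on the log2 scale over the tested probes. Pairs of wild type arrays differed by 0.51 to 0.64, and pairs of 1 knockout and 1 wild type array by 0.49 to 0.70. The only Zscan5b probe (A_55_P2419141) read -4.47, -5.17 and -5.13 in the knockout arrays, against -3.66, -4.03 and -3.12 in the wild type arrays. The groups did not overlap, but the limma adjusted p of 0.107 missed the threshold. The probe was dim, brighter than 22.0% of tested probes, yet well above background on all 3 knockout and all 3 wild type arrays. The log2 fold change was -1.32, or -0.59 with normexp background correction, and the probe checks the genotype only if it lies in the deleted part. All 14 of 14 ES cell markers were well above background on every array, with summed levels of 502 to 533 in the knockout and 490 to 549 in wild type. The summed level adds the linear signals of a list, each relative to the 75th percentile of its array. Dppa5a made up most of it for the ES cell markers, and Sparc and Fn1 together for the feeder markers. The mean log2 level of the ES cell markers, each centred on its own mean, ran from -0.03 to 0.02 in the knockout and from -0.08 to 0.07 in wild type. Of 20 feeder fibroblast markers 19 were tested, none was at 0, and all 19 were well above background on every array. Their summed level was 202, 236 and 190 in knockout replicates 1, 2 and 3, against 203, 355 and 294 in wild type replicates 1, 2 and 3. Their mean centred log2 level, which weighs each gene alike, was -0.65, -0.21 and -0.55 in the knockout, against -0.55, 1.09 and 0.87 in wild type. In such bulk samples, fewer cells of a type and less RNA per cell cannot be told apart.

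No PRC2 gene passed the test for a difference between knockout and wild type. Of 17 probes 0 were called by limma (adjusted p under 0.05), where 0.465% of all 26651 tested probes were called, 0.124% as higher and 0.341% as lower. Of the 10 genes, each read at its brightest probe, 4 lay above 0 and 6 below 0 in log2 fold change. Their median was -0.05, against -0.03 over 19006 genes. An unadjusted p under 0.05 was found for 1 gene that read higher in the knockout (Ezh1) and for 3 that read lower (Eed, Rbbp4 and Jarid2). Over all genes 21.7% had such a p. The 3 knockout arrays lay wholly above the wild type arrays for 2 genes (Ezh1 and Suz12) and wholly below them for 4 (Eed, Rbbp4, Rbbp7 and Jarid2). Over all genes the groups did not overlap in 28.8%, with the knockout above in 12.4% and below in 16.4%. Of the 17 probes 5 had the knockout above and 4 had it below, against 29.1% of all tested probes with groups apart, 13.7% above and 15.4% below. Levels below are log2 signals relative to the 75th percentile of the array. Differences are log2 fold changes, knockout minus wild type, with limma's SE and Benjamini-Hochberg adjusted p.

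**Figure D1:**
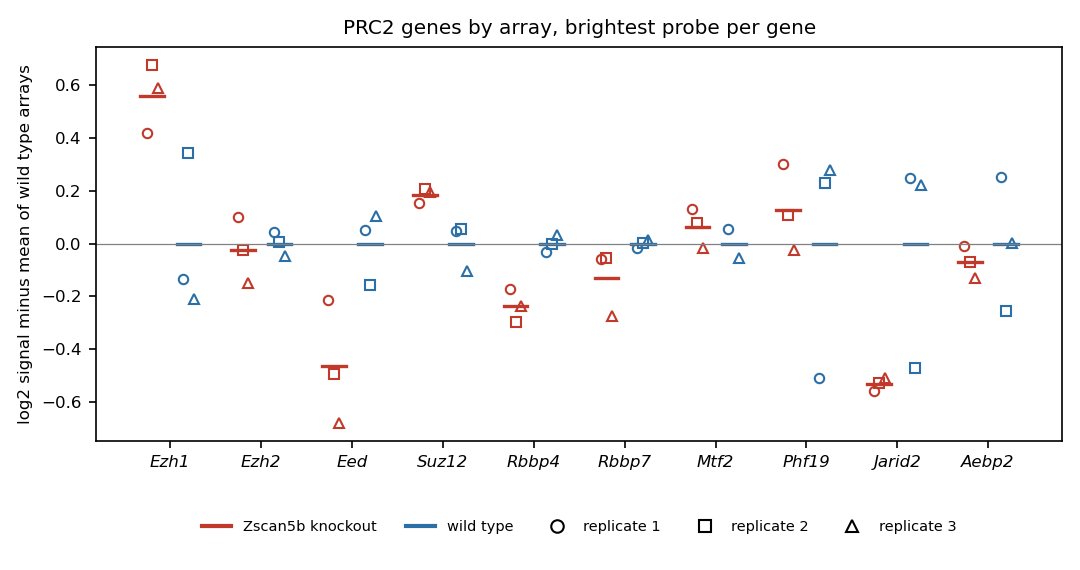
Log2 signal of each PRC2 gene at its brightest probe (x axis), as the difference from the mean of the wild type arrays (y axis). Symbols are single arrays, bars are group means, and the wild type replicate 2 spot of Mtf2 is missing because the scanner software marked it as an outlier; Ezh1 and Suz12 sit above and Eed, Rbbp4, Rbbp7 and Jarid2 below the wild type arrays.

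Ezh1, the catalytic subunit that is also used outside dividing cells, read higher in the knockout at all 4 of its probes, and Ezh2 did not. The brightest Ezh1 probe (A_55_P2082869, mm9 chromosome 11, 101052430 to 101052489) read 2.69, 2.95 and 2.86 in knockout replicates 1, 2 and 3, against 2.14, 2.61 and 2.06 in wild type replicates 1, 2 and 3. The groups were separate, but wild type replicate 2 lay close to the lowest knockout array. The log2 fold change was 0.56 ± 0.17 (SE, n = 3 per group), with a limma adjusted p of 0.163.

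The next brightest Ezh1 probe (A_55_P2155942, 101052680 to 101052739) gave the clearest separation among the 17 PRC2 probes. It read 0.83, 0.94 and 0.97 in the knockout, against 0.13, 0.43 and 0.05 in wild type. Its log2 fold change was 0.71 ± 0.13 (95% interval 0.40 to 1.03), and the limma adjusted p of 0.0801 still missed the threshold. The coding probe printed above (A_55_P2017086) was dim, brighter than 19.9% of tested probes, and read -4.17, -3.92 and -4.05 in the knockout, against -5.42, -4.42 and -4.87 in wild type. Its log2 fold change of 0.86 ± 0.25 had a limma adjusted p of 0.154, again with separate groups. With normexp background correction it was 0.25 (adjusted p 0.202). The remaining Ezh1 probe (A_55_P2017090, 101058722 to 101058781) matches an Ensembl transcript in the design, at offset 3557. By genome position it lies upstream of the other Ezh1 probes, but its place in the RefSeq transcript was not computed. Its groups overlapped. It read -4.16, -4.84 and -4.74 in the knockout, against -4.53, -4.80 and -5.25 in wild type, a log2 fold change of 0.28 ± 0.25, or 0.14 with normexp.

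In each of the 3 separating Ezh1 probes, wild type replicate 2 was the highest wild type array. Without it the log2 fold changes were 0.73, 0.83 and 1.096, with limma adjusted p of 0.0382, 0.0302 and 0.0403, and all 3 probes were called. That setting called 9.59% of all tested probes, 5.29% as higher. With array weights, which called 3.15% of all tested probes, 1.63% as higher and 1.52% as lower, only the probe with the clearest separation passed among the 17 (log2 fold change 0.79, adjusted p 0.0379). Wild type replicate 2 also had the highest summed level of feeder markers, and wild type replicate 3 was next. The lowest Ezh1 signal was that of wild type replicate 3 at the brightest and next brightest probes, and of wild type replicate 1 at the coding probe. The part of feeder RNA in the Ezh1 values was not tested.

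**Figure D2:**
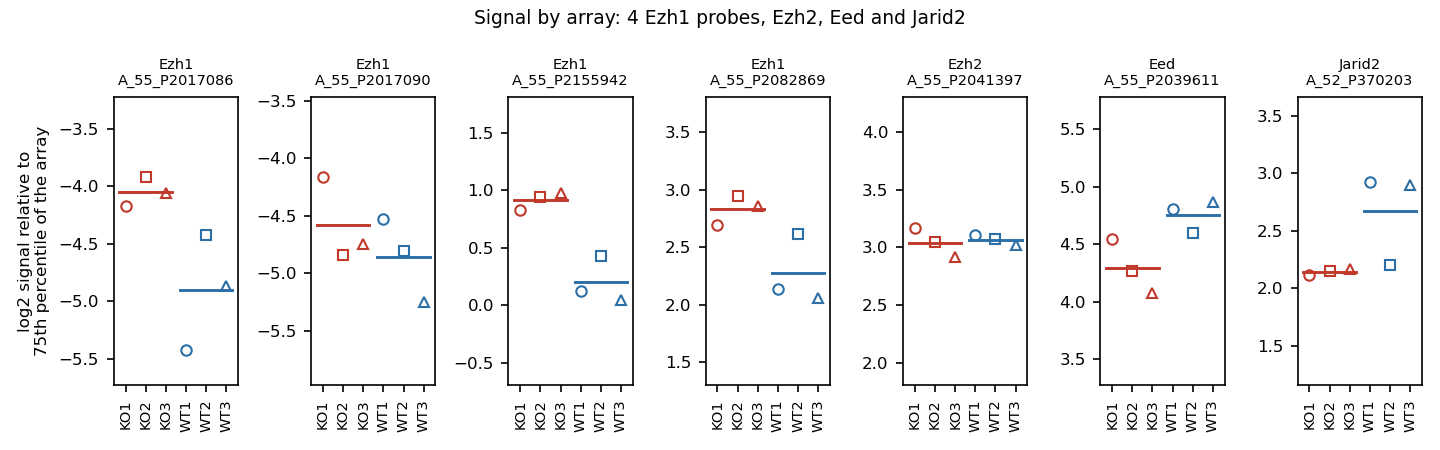
Log2 signal relative to the 75th percentile of the array (y axis) on each array (x axis) for 4 Ezh1 probes and the brightest probes of Ezh2, Eed and Jarid2; red marks knockout, blue wild type, and bars are group means. Every panel spans the same log2 range, so the steps can be set against each other although the levels cannot. Ezh1 steps down from knockout to wild type in 3 of its panels, and wild type replicate 2 lies nearest to the knockout there and for Eed and Jarid2.

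Ezh2, the methyltransferase of dividing cells, had 1 probe (A_55_P2041397, mm9 chromosome 6, 47480307 to 47480366). It read 3.17, 3.04 and 2.92 in the knockout, against 3.11, 3.07 and 3.02 in wild type, and the groups overlapped. The log2 fold change was -0.02 ± 0.11, with a limma adjusted p of 0.909 and a 95% interval of -0.28 to 0.23. The p does not show that the levels are equal, and the interval bounds how far they could differ. The Ezh2 to Ezh1 ratio within an array does not depend on the scaling of the array. As log2 difference of the brightest probes it was 0.48, 0.10 and 0.06 in the knockout, against 0.97, 0.46 and 0.96 in wild type. It was lower in the knockout by a mean of 0.58 on the log2 scale, but knockout replicate 1 lay above wild type replicate 2. The exact two-sided permutation p was 0.2, and 0.3 after adjustment over the 3 ratios compared, where 3 against 3 arrays cannot give less than 0.1.

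The 3 genes whose 6-array pattern was nearest to that of Ezh2 were Parp1, Rnaseh1 and Kxd1. Their root mean square difference from Ezh2, each gene centred on its own mean, was 0.021, 0.024 and 0.025 on the log2 scale. A flat pattern is common, and 1615 of 18969 genes lay within 0.1 of Ezh2.

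Eed and Suz12, the core subunits without which the enzyme is inactive, read in opposite directions. Eed (A_55_P2039611, mm9 chromosome 7, 97103264 to 97103323) read 4.54, 4.26 and 4.08 in the knockout, against 4.81, 4.60 and 4.86 in wild type. All knockout arrays were below all wild type arrays, by a narrow gap between knockout replicate 1 and wild type replicate 2. The log2 fold change was -0.46 ± 0.15 (0.726-fold), with a limma adjusted p of 0.175. Suz12 (A_51_P214796, mm9 chromosome 11, 79847251 to 79847310) read 2.74, 2.80 and 2.78 in the knockout, against 2.64, 2.65 and 2.49 in wild type. Its groups did not overlap either, and the log2 fold change was 0.18 ± 0.10, with a limma adjusted p of 0.308. Neither Eed nor Suz12 passed the test in any of 17 other settings. In 5 of them the value could not change by construction, and in the other 12 each gene kept its direction.

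Rbbp4 and Rbbp7 encode closely related WD40 proteins that bind histones, and they also serve other chromatin complexes, such as NuRD. The brighter Rbbp4 probe (A_51_P307325, mm9 chromosome 4, 128986934 to 128986993) read 5.45, 5.32 and 5.38 in the knockout, against 5.59, 5.62 and 5.65 in wild type. The groups were separate and each was tight, and the log2 fold change was -0.23 ± 0.09 with a limma adjusted p of 0.218. The other Rbbp4 probe (A_52_P424767) read the other way, at -0.79, -0.69 and -0.62 in the knockout, against -1.34, -0.57 and -1.24 in wild type. Its log2 fold change was 0.35 ± 0.21. Leaving out wild type replicate 2 gave 0.59 with a limma adjusted p of 0.0411. The Rbbp4 probes therefore disagree in sign, and no direction is given for the gene as a whole. Its place among the genes that read lower in the knockout rests on the brighter probe only.

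Rbbp7 differed less. Its brighter probe (A_55_P2123822, mm9 chromosome X, 159216593 to 159216652) read 4.97, 4.97 and 4.75 in the knockout, against 5.01, 5.03 and 5.04 in wild type. The log2 fold change was -0.13 ± 0.10, and -0.12 ± 0.10 at its other probe, whose groups overlapped. The Rbbp7 to Rbbp4 ratio within arrays changed by a log2 value of 0.10, with an exact two-sided permutation p of 0.4 (0.4 adjusted) and overlapping groups.

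**Figure D3:**
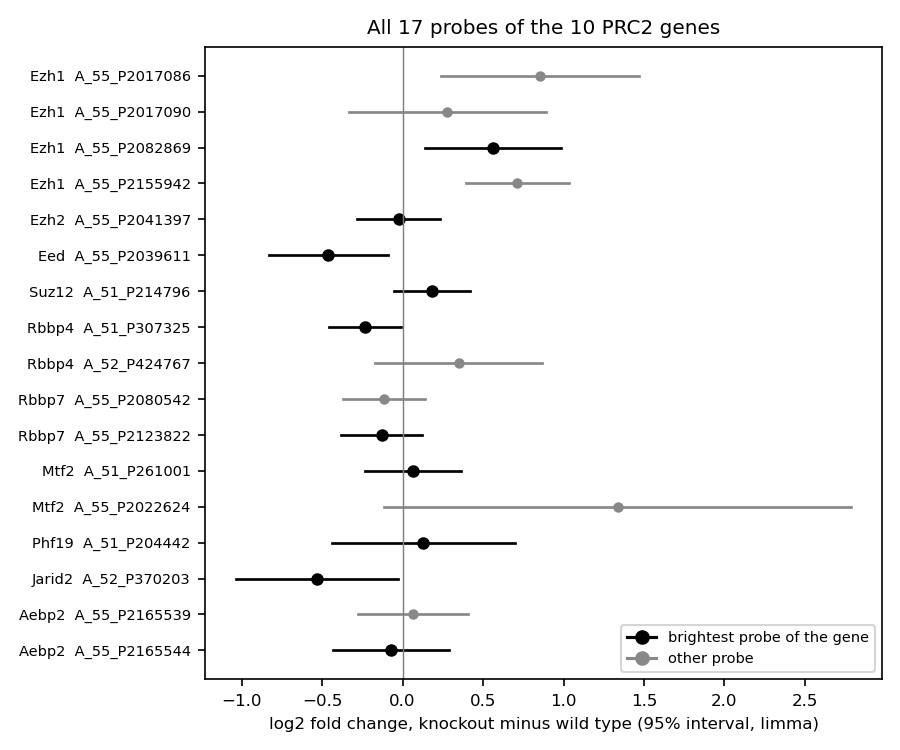
Log2 fold change, knockout minus wild type (x axis), with its 95% interval from limma for the 17 probes of the PRC2 genes (y axis); black marks the brightest probe of each gene and grey the others. Ezh1 probes lie to the right of 0, while Rbbp4, Mtf2 and Aebp2 have probes that differ from each other in size or sign.

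Among the accessory subunits, Jarid2 had the lowest log2 fold change. Jarid2, a DNA-binding member of PRC2.2, had 1 probe (A_52_P370203, mm9 chromosome 13, 45016247 to 45016306). It read 2.11, 2.15 and 2.17 in the knockout, against 2.92, 2.204 and 2.90 in wild type. The knockout arrays lay together, wild type replicates 1 and 3 were well above them, and wild type replicate 2 was just above. The log2 fold change was -0.53 ± 0.21, with a limma adjusted p of 0.215. Without wild type replicate 2 it was -0.77 with a limma adjusted p of 0.0302, in a setting that called 4.31% of all tested probes as lower. Aebp2, a zinc finger partner of JARID2 in PRC2.2, read 0.41, 0.35 and 0.29 in the knockout at its brighter probe (A_55_P2165544), against 0.68, 0.17 and 0.43 in wild type. The groups overlapped, and its probes gave log2 fold changes of -0.07 ± 0.15 and 0.06 ± 0.14.

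Mtf2, a Polycomb-like protein that binds unmethylated CpG-rich DNA, is a PRC2.1 subunit. Its bright probe (A_51_P261001, mm9 chromosome 5, 108537924 to 108537983) was marked as an outlier spot on wild type replicate 2 and was left out there. It read 3.39, 3.34 and 3.24 in the knockout, against 3.32 and 3.20 in wild type replicates 1 and 3. The groups overlapped, and the log2 fold change was 0.06 ± 0.12 (n = 3 and 2), or -0.07 with the marked spot kept. The other Mtf2 probe (A_55_P2022624) was brighter than only 5.05% of tested probes and was not well above background on 1 wild type array. It read -4.09, -5.93 and -5.50 in the knockout, against -6.01, -6.04 and -7.48 in wild type, a log2 fold change of 1.34 ± 0.60 with a limma adjusted p of 0.250. With normexp it was 0.34, and the mean over both Mtf2 probes was 0.82. Phf19, another Polycomb-like protein of PRC2.1, read -0.25, -0.44 and -0.57 in the knockout, against -1.06, -0.32 and -0.27 in wild type (A_51_P204442), with wild type replicate 1 as the low array. Its log2 fold change was 0.13 ± 0.23, and -0.13 without wild type replicate 1.

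The Jarid2 to Mtf2 ratio sets a PRC2.2 subunit against a PRC2.1 subunit within each array. As log2 difference it was -1.28, -1.19 and -1.08 in the knockout, against -0.39 and -0.31 in wild type replicates 1 and 3. The difference of -0.83 had an exact two-sided permutation p of 0.1, the smallest that 3 against 2 arrays allow, and 0.3 after adjustment over the 3 ratios. With the marked Mtf2 spot of wild type replicate 2 kept, the difference was -0.47. The ratio on that array then lay below the knockout arrays, so the groups overlapped, and no permutation p was computed for that setting. The array left out for Mtf2 is the one that read Jarid2 low, and its marked spot read Mtf2 high, so the larger value rests on its absence.

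**Figure D4:**
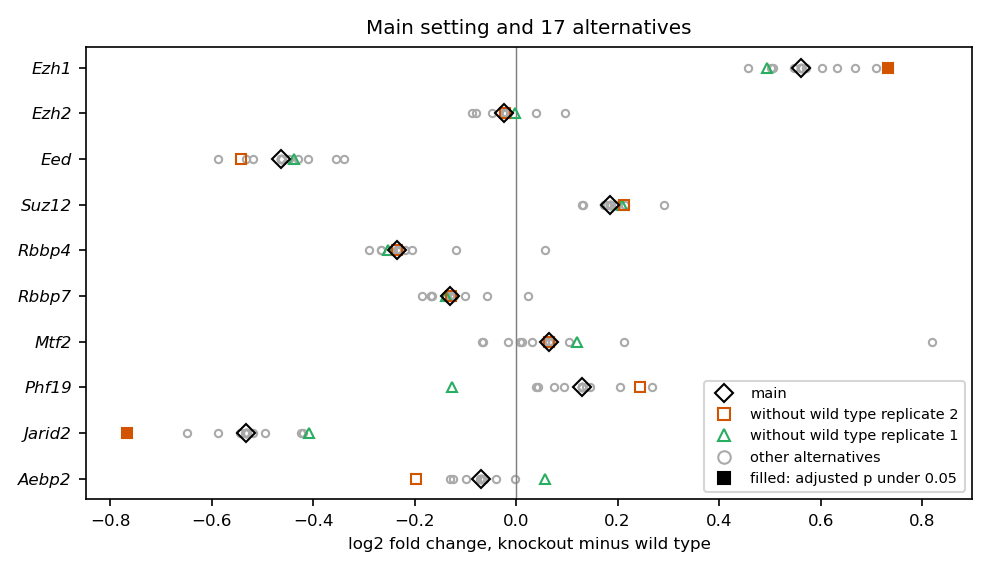
Log2 fold change, knockout minus wild type (x axis), of each PRC2 gene (y axis) in the main setting and in 17 alternatives; filled symbols passed the limma test. Ezh1 and Jarid2 are filled only without wild type replicate 2, and Ezh1, Suz12, Eed and Jarid2 keep their side of 0 in all alternatives.

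The knockout SD was smaller than the wild type SD for 5 of 9 PRC2 genes with 3 arrays in each group, against 73.6% of 18970 genes. The SD was 0.03 in the knockout and 0.41 in wild type for Jarid2, and 0.23 in the knockout and 0.14 in wild type for Eed. No difference of these shares was tested.

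Other Polycomb genes were not called either. A list of 5 further PRC2-associated genes held Lcorl, Phf1, Epop, Ezhip and Lcor, and another held 22 genes of Polycomb repressive complex 1 (PRC1). The remaining lists were 10 genes for enzymes and cofactors that oppose Polycomb and 30 tested of 41 developmental genes known as PRC2 targets in ES cells. In each list 0 genes passed limma in either direction over all probes. At an unadjusted p under 0.05 the further PRC2-associated genes had 1 higher and 0 lower, and PRC1 had 6 and 1. The opposing enzymes and cofactors had 0 and 1, and the developmental genes 6 and 4. Over all genes 9.52% were higher and 12.1% lower at that level. The medians of the lists were 0.45, 0.06, -0.16 and 0.23, against -0.03 over all genes. The first is the value of Ezhip, which had no value on wild type replicate 1.

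Among the further PRC2-associated genes, Lcorl, whose locus encodes a PRC2.1 partner, read 0.59 ± 0.17. Phf1, another Polycomb-like gene, read 0.53 ± 0.27, and Epop, which links PRC2 to elongin, -0.54 ± 0.28. Only the groups of Lcorl were separate among these 3. In PRC1, which ubiquitinates histone H2A, the smallest p belonged to the RING finger genes Pcgf3 (0.64 ± 0.13, adjusted p 0.0939), Pcgf5 (0.52 ± 0.14) and Pcgf6 (-0.36 ± 0.10), all with separate groups. Pcgf3 read -3.36, -3.25 and -3.29 in the knockout, against -4.05, -3.71 and -4.07 in wild type. Of the opposing enzymes and cofactors, Nsd1, another histone H3 methyltransferase, read -0.45 ± 0.16, Kmt2c -0.24 ± 0.12 and Asxl2, a partner of the deubiquitinase BAP1, -0.34 ± 0.16. Among these 3 only Nsd1 had separate groups.

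The developmental genes scattered widely in both directions, with 21 positive and 9 negative log2 fold changes. Over all genes 8817 were positive and 10189 negative, and the difference of these shares was not tested. Olig2, a neural progenitor factor, read -0.77 on average in the knockout and -0.19 in wild type, a difference of -0.58 ± 0.12 with a limma adjusted p of 0.0936. Hoxa7, a homeobox gene, read -0.56 ± 0.13 and Sox17, an endoderm factor, 1.17 ± 0.30, each with separate groups and an adjusted p above the threshold. The log2 fold changes of the list ran from -1.02 to 1.58. The lowest was that of Cdkn2b, with overlapping groups. It read -0.97, -0.63 and -1.14 in the knockout, against -0.94, 0.45 and 0.82 in wild type replicates 1, 2 and 3. The highest was that of Foxa2, which was dim at -4.48 in the knockout and -6.06 in wild type, where 2 arrays were well above background. Sox17 was dim as well, at -3.62 in the knockout and -4.79 in wild type. Dlx2 (1.49) and T (1.04) were well above background on 3 knockout arrays, but on 1 and 2 wild type arrays. With Foxa2, they passed the filter on dim signal more through the group where they read high. Hand2 (-0.73), Pax2 (-0.27) and Hoxa9 (0.04) were well above background on 2 knockout and 3 wild type arrays. In each group, 25 of the 30 genes were well above background on all of its arrays. The values of this list were not recomputed with normexp. Feeder markers were negative in 18 of 19, with a median of -0.86. Their part in the values of the developmental genes was not tested.

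**Figure D5:**
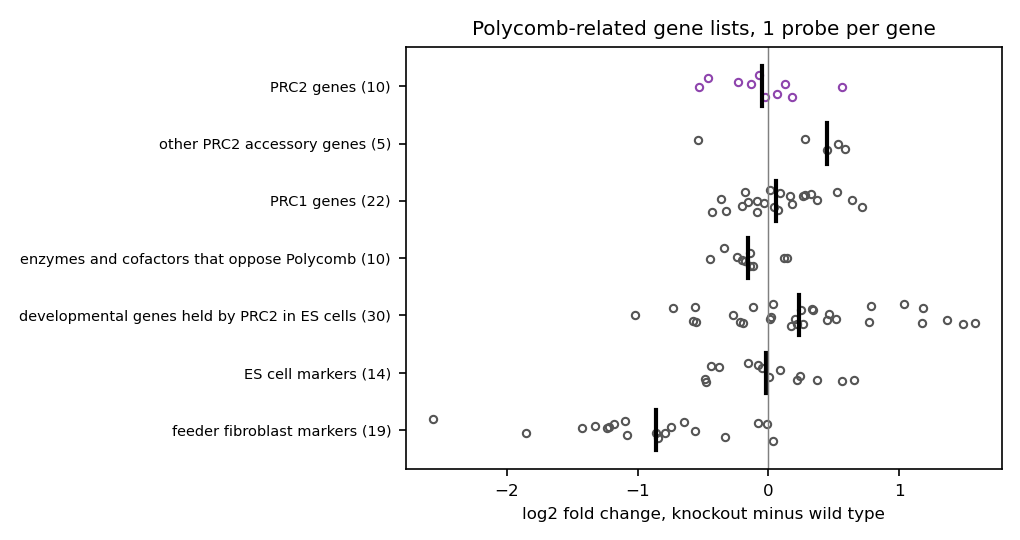
Log2 fold change, knockout minus wild type (x axis), of single genes (circles) in 7 lists (y axis, number of genes tested in brackets), with list medians as black bars. PRC2 genes lie between -0.53 and 0.56 around a median of -0.05, and the feeder markers lie mostly below 0. The list drawn as other PRC2 accessory genes holds the further PRC2-associated genes, Ezhip included.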

How the data were processed

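Total RNA of 3 Zscan5b knockout and 3 wild type samples was hybridised to 1-colour Agilent arrays. Groups and replicate numbers come from the sample titles. The authors deposited linear spot intensity from Feature Extraction, with background subtracted and detrended. Its version is 10.7.3.1 in the headers of those files and 10.3.1.1 in the submitters' processing notes. The authors also deposited a table of log2 values, which are centred on the median of each probe, with array scaling not given in the sources used here. Its column medians were -0.02, 0.02 and 0.03 in the knockout and 0.02, -0.01 and -0.07 in wild type. Against centred scanner values its slope was 1.00 on every array (r 0.987 to 0.995 across probes, which are not independent), and it served as an alternative.

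Control and outlier spots were left out, log2 of the processed signal was averaged per probe, and the 75th percentile of each array (intensity 852 to 1028) was subtracted. Probes well above background on at least 3 of 6 arrays (26651) were tested with lmFit and eBayes of limma 3.58.1 in R 4.3.3 (files read with data.table, version 1.17.8), two-sided, with Benjamini-Hochberg adjustment over all of them. The number of arrays limits precision, and no probe was saturated. Probe positions are the files' own (mm9). Members were matched by the file's gene name, other genes by accession (26761 probes), current symbol (3814) or synonym (639) in RefSeq genes on GRCm38.p6, and 8215 probes kept the file's name. A gene's value is that of its brightest tested probe. Named genes are all members, Zscan5b, the 3 genes nearest to Ezh2 and, in each other Polycomb list, the 3 members with the smallest p. Also named are the remaining further PRC2-associated genes and the markers that make up most of a summed level. Developmental genes at the ends of the range, or detected on fewer arrays of 1 group than of the other, were named for that reason. Members and lists were chosen with earlier results of these data known. The fit was tested on simulated data.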

Additional observations from a re-analysis of the deposited data

How the results depend on the processing

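Over 10 PRC2 genes and 17 alternatives, 161 of 170 log2 fold changes kept their direction and 159 also their side of the threshold. Of the 170, 45 equal the main value, since filters, prior, block or probe averaging left it as it was or, for Mtf2, the array left out had no value, and 116 of the other 125 kept their direction. The signs that turned were those of Ezh2 (0.10) and Rbbp7 (0.023) under quantile normalization, Mtf2 with a shift to the median (-0.016), in the authors' table (-0.067) and with marked spots kept (-0.065, an alternative chosen after seeing the data), and Rbbp4 with the mean over its disagreeing probes (0.058). That mean was 0.82 for Mtf2, and normexp gave 0.34 at the dim Mtf2 probe. When 1 array at a time was left out, Ezh2 ran from -0.086 to 0.039, Phf19 from -0.13 to 0.27 and Aebp2 from -0.20 to 0.057, with the turned signs without knockout replicate 3 for Ezh2 and without wild type replicate 1 for the other two. The median of the 10 genes was 0.059 under quantile normalization, -0.10 with the shift and 0.027 with the mean over probes. Leaving out single arrays gave 0 to 2557 calls over all probes, 0 to 5 among PRC2 probes and 0 to 2 among PRC2 genes, where 2557, 5 and 2 all came without wild type replicate 2; without wild type replicate 1 there were 640 calls, and 0 without wild type replicate 3 or any 1 knockout array. Over all probes the calls numbered 124 in the main setting. They were 231 with the shift, 840 with array weights (1 PRC2 probe), and 0 under normexp, without a filter, after filtering for detection on 6 of 6 arrays, or under a trended, robust prior. Zscan5b passed with array weights (-1.58) and without wild type replicate 2 (-1.54), and was -0.59 under normexp and -1.08 without wild type replicate 3, where it did not pass. The cause of these differences was not tested. With the replicate number as a block 0 probes were called. The deviations of same-numbered arrays from their group means correlated at 0.16, 0.23 and -0.14, against -0.32 to 0.21 for arrays with unlike numbers. With 3 arrays per group these values cannot decide whether the numbers pair the samples. The 2 dimmest Ezh1 probes, the dim Mtf2 probe and the Zscan5b probe are limited by signal near background.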
